A study of Mus musculus with 18 samples.

Results

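The comparison described here set bladders taken 1 day after cyclophosphamide against bladders taken 1 day after saline, in mice that all ate a vitamin A-enriched diet. Its members are 6 of the 18 libraries of the series, 3 from cyclophosphamide mice and 3 from saline mice, chosen by their labels, and all 46333 named genes of the deposited count table, of which 19323 had enough counts to be tested. The cyclophosphamide mice were wild-type female BALB/c mice of 8 weeks given 150 mg of the drug per kg of body weight into the peritoneum. The saline mice were of the same strain, sex, genotype and age and had saline in its place. Both groups had been moved 1 week before the injection to a diet labelled with 566081 IU of retinyl acetate per kg, whereas the series description names retinyl palmitate. Whole bladders were used, with 1 library per mouse. Mice were housed in groups of 3 and the cage of each is not given, so cage and group may coincide. In the same layout, 3 cyclophosphamide and 3 saline mice on a normal diet are used below for the test of whether the response differed between diets, and 3 vitamin A mice taken 3 days after cyclophosphamide for levels only.

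Cyclophosphamide is an alkylating drug that liver enzymes activate. Its metabolites crosslink DNA, and acrolein, which is released with them, collects in urine and injures the urothelium, the inner lining of the bladder. Large umbrella cells covered by plaques of uroplakin proteins form its surface and are shed after such injury. Intermediate cells and keratin 5 basal cells lie below and can renew it. Retinoic acid, made from vitamin A, directs urothelial cells away from a keratinised, squamous state.

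Levels are given as counts per 1000000 counts of named genes in a library (CPM), and changes as log2 ratios of cyclophosphamide over saline from the model described with the methods. A gene was called when its p-value, adjusted over all genes tested, was under 0.05. Libraries held 19554132 to 20758141 counts after cyclophosphamide and 24125141 to 34598952 after saline. The cyclophosphamide libraries were less alike (mean correlation with their own group of 0.949 to 0.954) than the saline libraries (0.977 to 0.980). Cyclophosphamide replicate 3 had 3.82% of its counts on mitochondrial genes, against 2.18% to 2.87% in the other libraries of both groups. Bladder markers were abundant: the uroplakin gene Upk3a had 362 to 841 CPM after cyclophosphamide and 1587 to 1623 CPM after saline, and the smooth muscle actin gene Acta2 had 2049 to 4167 CPM and 3894 to 6029 CPM in the same groups. The kidney gene Umod had 0 counts in all 6 libraries.

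Cyclophosphamide changed 3727 genes, 19.3% of those tested. Of these, 1979 were higher (10.2%) and 1748 lower (9.05%) than in saline bladders, and the changes exceeded 2-fold for 1092 higher genes (5.65%) and 871 lower genes (4.51%). Counts of called members in the gene lists below stand against the shares of 10.2% higher and 9.05% lower. The median log2 change over all genes tested was -0.01. Among 15320 protein-coding genes 11.7% were higher and 10.3% lower, among 2760 long noncoding RNA genes 5.11% and 4.53%, and among 775 pseudogenes 3.87% and 3.35%. Of 80 cytosolic ribosomal protein genes 1 was higher (1.25%) and 10 were lower (12.5%), and of 24 genes of the mitochondrial genome 0 were higher and 3 lower (12.5%). Cell division, DNA repair, basal and squamous keratins, wound proteases, chemokines and glycolysis genes were among those higher, whereas uroplakins, fibroblast and elastic fibre genes, antigen presentation and lymphocyte genes were among those lower. Of these calls, 1128 of the higher and 835 of the lower genes stayed called whichever of the 6 libraries was dropped, and none changed direction in these fits. Because whole bladders were sequenced, fewer cells of a type and less RNA per cell cannot be told apart.

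**Figure D1:**
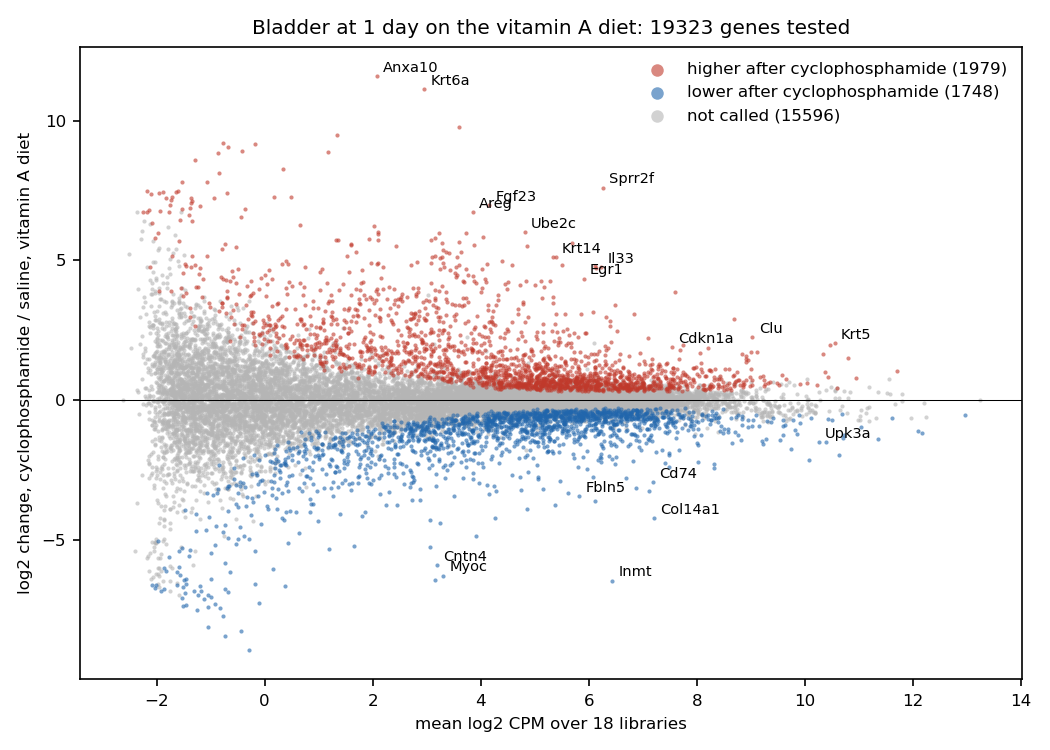
Log2 change of each of 19323 genes (vertical axis, cyclophosphamide over saline on the vitamin A diet at 1 day) against its mean log2 CPM over 18 libraries (horizontal axis), with the 1979 genes called higher in red, the 1748 called lower in blue and the rest in grey. Anxa10 and Krt6a stand highest among the labelled genes and Inmt lowest.

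Among the genes with large rises was Anxa10, an annexin gene on chromosome 8 (62510076 to 62576227, minus strand, GRCm39). It had 5.43, 19.4 and 20.1 CPM after cyclophosphamide and 0 counts in every saline library, so it was at least 416-fold higher (against a floor of 3 counts over the saline group). Krt6a, the keratin of wounded and hyperproliferative epithelia (chromosome 15, 101598363 to 101602740), had 4.75, 48.1 and 60.1 CPM after cyclophosphamide and a single count in the saline group, a ratio of 3130 with a counting interval of 562 to 124000. The first cyclophosphamide mouse had much less of both than its group mates. The small proline-rich gene Sprr2f, a precursor of the cornified envelope, had 89.0, 417 and 353 CPM, against 0.465, 0.156 and 4.001 CPM in saline bladders (log2 7.61, SE 1.01, adjusted p = 0.000115). Its relative Sprr2g changed by log2 9.79. Sprr2 genes are close copies of each other, as are Krt6a and Krt6b, and how reads were divided among copies is not stated. Lypd5 was at least 96.5-fold higher, from 0 counts in the saline group.

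Fgf23, known as a bone hormone of phosphate balance, had 32.0, 28.0 and 68.6 CPM after cyclophosphamide and 0.174, 0.428 and 0.417 CPM after saline (log2 6.99, SE 0.87, adjusted p = 2.63e-05). Areg, which encodes the EGF receptor ligand amphiregulin, had 16.1, 43.1 and 97.4 CPM after cyclophosphamide and at most 0.639 CPM in a saline bladder (log2 6.73, adjusted p = 2.06e-05). For both genes the 3 cyclophosphamide mice differed several-fold from each other. At 3 days Fgf23 averaged 23.1 ± 26.4 CPM and Areg 11.9 ± 7.47 CPM (SD, n = 3).

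Among the genes with large falls was Inmt, a methyltransferase gene on chromosome 6 (55147612 to 55151975). It had 4.95, 1.80 and 1.79 CPM after cyclophosphamide and 252, 286 and 194 CPM after saline (log2 -6.46, SE 0.97, adjusted p = 0.000316). Myoc (log2 -6.28), the cell adhesion gene Cntn4 (log2 -5.91), Chodl (log2 -5.27) and the secreted glycoprotein gene Stc2 (log2 -4.39) fell with it. Genes named for the largest changes were taken only from those whose groups did not overlap. That held in this direction for 17.4% of genes tested, so the separation of these genes adds nothing to their choice. The alternatively activated macrophage gene Retnla had 2.81, 0.875 and 1.39 CPM after cyclophosphamide and 56.5, 14.3 and 73.2 CPM after saline (log2 -4.85). Its call was lost when limma weighted libraries by their estimated quality (adjusted p = 0.188). Those weights were 6.73 for saline replicate 2, the one with 14.3 CPM, against 0.775 and 1.04 for saline replicates 1 and 3. Cyp1a1, a target of the aryl hydrocarbon receptor, changed by log2 -4.23, with an adjusted p of 0.0927 under the same weighting, and Ahrr, the repressor of that receptor, fell by 2.24 on the log2 scale. Rnase2a (log2 -5.33) was called only with saline replicate 3 in the fit, where it had 14.5 CPM (adjusted p = 0.0812 without it). It was also lost without cyclophosphamide replicate 2 (0.0641) or 3 (0.0639).

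The DNA replication genes listed rose without exception. All 30 S phase genes listed were called higher, with a median log2 change of 2.67 and a range of 1.27 to 5.36, and this count stayed at 30 whichever library was dropped. Mcm6, a subunit of the replicative helicase (chromosome 1, 128259312 to 128287442, minus strand), had 64.2, 72.3 and 49.5 CPM after cyclophosphamide and 3.40, 2.37 and 3.71 CPM after saline (log2 4.26, SE 0.35, adjusted p = 5.73e-07). E2f8, an atypical E2F factor of cycling cells, had 26.5, 24.5 and 19.8 CPM, against 0.610, 0.428 and 0.625 CPM (log2 5.36). Uhrf1, which carries DNA methylation through replication, changed by log2 5.12. Pcna, the polymerase clamp, was already abundant in saline bladders, with 127, 139 and 138 CPM after cyclophosphamide and 51.5, 52.99 and 50.4 CPM after saline (log2 1.36). Dtl, the substrate receptor of a ubiquitin ligase that acts on licensing factors in S phase, rose further than any S phase gene listed (log2 5.98), and Tcf19 rose too (log2 2.80).

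Of 30 mitosis genes listed, 29 were called higher, all 30 had every cyclophosphamide library above every saline library (20.9% of genes tested did), and the median log2 change was 4.80. Mki67, the proliferation marker Ki-67 (chromosome 7, 135291513 to 135318286), had 198, 124 and 99.9 CPM after cyclophosphamide and 4.27, 1.63 and 8.88 CPM after saline (log2 4.82, SE 0.54, adjusted p = 9.81e-06). The cyclin gene Ccnb1 had 48.3, 27.3 and 20.9 CPM, against 0.465, 0.117 and 1.08 CPM (log2 5.84). Ube2c, the ubiquitin-conjugating enzyme of the anaphase-promoting complex, changed by log2 6.01, and Foxm1, the factor that drives G2 and M phase genes, by log2 3.41. Cyclophosphamide replicate 1 was highest in each of these 4 genes, and the summed level of the 30 genes was 1767, 1005 and 720 CPM in the 3 cyclophosphamide mice, against 69.4, 68.8 and 96.1 CPM in saline mice. At 3 days Mki67 averaged 84.3 ± 50.4 CPM and Mcm6 36.4 ± 22.3 CPM (SD, n = 3).

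The promoters of Mcm6 and Ube2c are shown because they are those of the S phase and the mitosis gene with the largest log2 change among called members that hold the searched motif. The searched motifs were the E2F motif (TTTNGCGC or TTTCCCGC) and the cell cycle homology region (TTTGAA), each on both strands, in windows of 300 bases from 250 before to 50 after the RefSeq start (GRCm38.p6, a different build from that of the counts). Of 24 S phase genes with a promoter in the table, 7 held the E2F motif (29.2%), against 3.78% of the promoters of 13953 tested genes. Of 24 mitosis genes, 18 held TTTGAA (75%), against 12.9% of all. A match describes these letters only and is not evidence of binding. Here and below, such shares describe lists chosen from general knowledge and do not measure the response to cyclophosphamide. Capitals mark the matches, which overlap each other in the first 2 of the 3 in Mcm6. The Mcm6 window is chr1:128359656-128359955 on the minus strand and the Ube2c window chr2:164769679-164769978 on the plus strand.
Mcm6: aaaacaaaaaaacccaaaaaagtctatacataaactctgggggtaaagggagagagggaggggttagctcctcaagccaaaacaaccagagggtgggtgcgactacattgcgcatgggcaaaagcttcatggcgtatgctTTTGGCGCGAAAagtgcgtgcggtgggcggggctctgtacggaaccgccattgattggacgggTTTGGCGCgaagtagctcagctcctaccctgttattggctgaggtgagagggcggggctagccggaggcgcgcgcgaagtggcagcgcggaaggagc
Ube2c: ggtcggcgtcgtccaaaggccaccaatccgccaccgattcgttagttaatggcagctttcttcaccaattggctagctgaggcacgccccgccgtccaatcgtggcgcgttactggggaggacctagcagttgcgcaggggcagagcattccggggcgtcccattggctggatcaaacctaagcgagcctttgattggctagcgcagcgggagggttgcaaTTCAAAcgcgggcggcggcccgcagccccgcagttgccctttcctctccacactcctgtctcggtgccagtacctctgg

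Genes for the repair of crosslinks and double-strand breaks rose in part. Of 26 tested, 17 were called higher and none lower (median log2 1.60). Ercc1, part of the nuclease that unhooks crosslinks (chromosome 7, 19075769 to 19090449), had 80.1, 124 and 122 CPM after cyclophosphamide and 19.1, 19.3 and 19.2 CPM after saline (log2 2.48, SE 0.18, adjusted p = 3.23e-07). Its partner Ercc4 was not called (log2 -0.31). Brca1 (log2 3.65), which acts in homologous recombination, and the helicase gene Brip1 (log2 3.70) rose. The damage kinases Atr (log2 -0.18, adjusted p = 0.543) and Atm (log2 -0.10, adjusted p = 0.784) were not called. Fancd2, the monoubiquitinated protein of the Fanconi pathway, was near the threshold (log2 0.93, adjusted p = 0.0437) and lost its call without cyclophosphamide replicate 1 (0.205) or 2 (0.0738) and without saline replicate 1 (0.168) or 2 (0.105).

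Among p53 target genes, 14 of 29 were called higher and 1 lower (median log2 0.60). Cdkn1a, the p21 inhibitor of cyclin kinases (chromosome 17, 29309953 to 29319696), had 254, 265 and 292 CPM after cyclophosphamide and 72.0, 67.9 and 71.8 CPM after saline (log2 1.91, SE 0.13, adjusted p = 1.79e-07). It still averaged 248 ± 3.68 CPM at 3 days. Mdm2, the ligase that degrades p53, had 147, 149 and 133 CPM, against 74.2, 72.0 and 75.2 CPM (log2 0.93), and the death receptor gene Tnfrsf10b changed by log2 2.23. Gdf15, a stress cytokine gene, rose by 4.77 on the log2 scale. The member that fell was Sesn1 (log2 -0.88), a sestrin that restrains growth signalling.

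**Figure D2:**
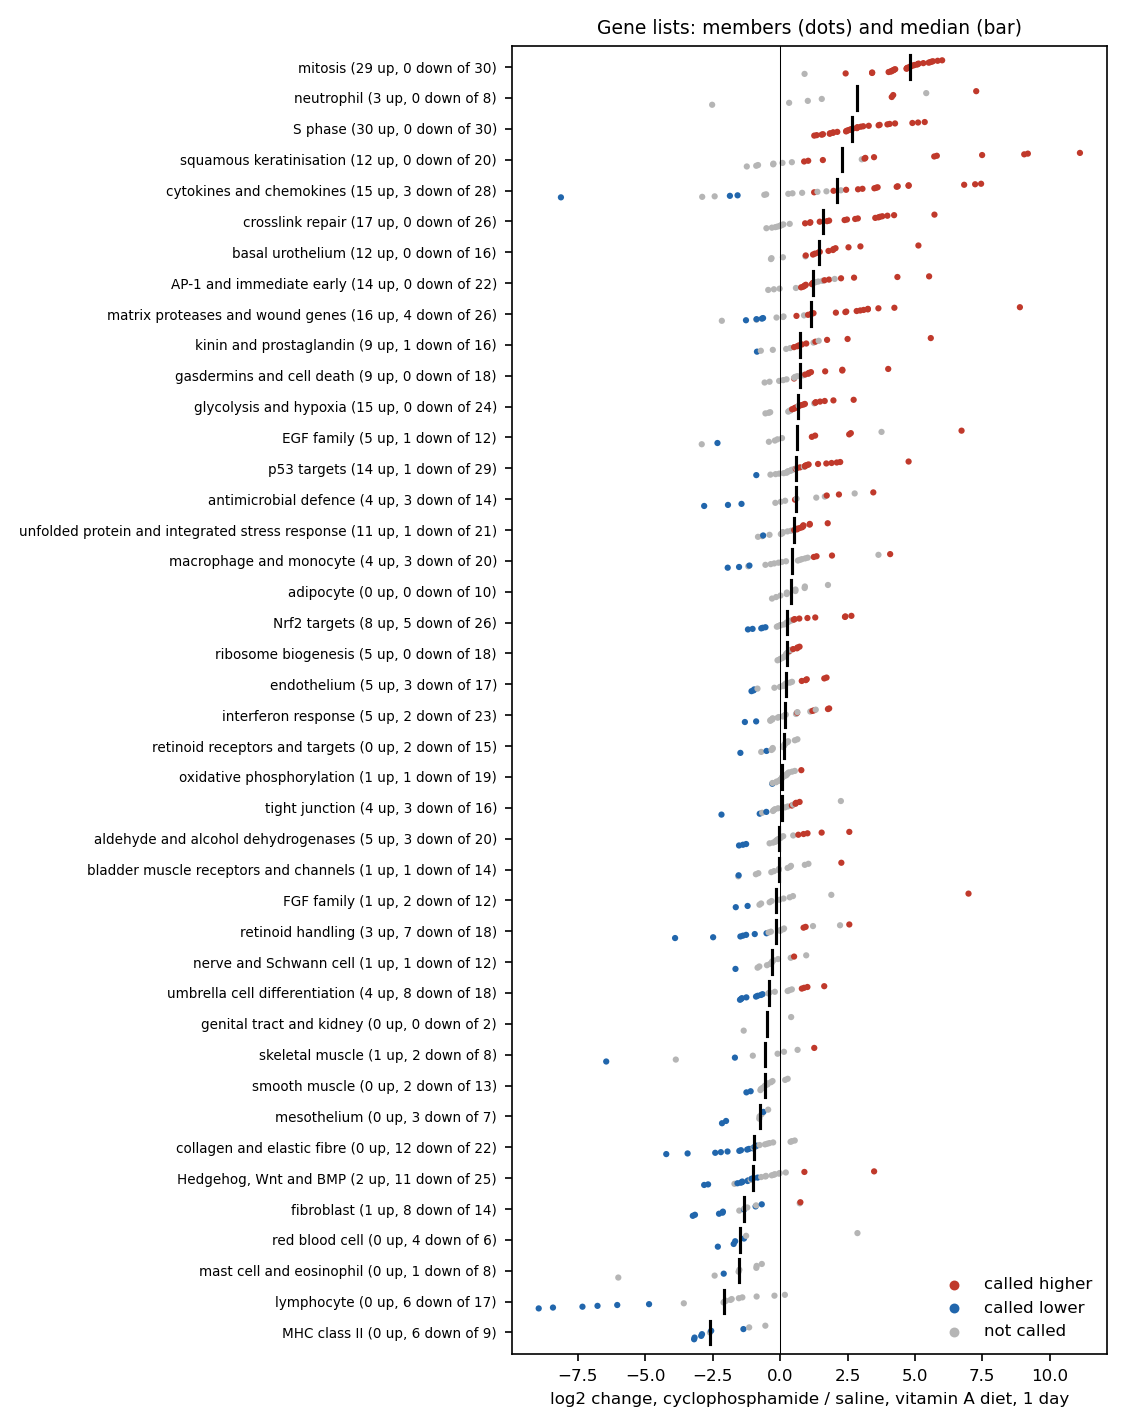
Log2 change of every tested member (dots) of 42 gene lists on the horizontal axis, with 1 list per line ordered by its median (black bar), called members in red (higher) or blue (lower) and the rest in grey. Mitosis genes have the highest median, 4.80, and MHC class II genes the lowest, -2.60.

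In the umbrella cell list 8 of 18 genes fell and 4 rose (median log2 -0.41), while 12 of 16 basal genes rose and none fell (median log2 1.44). Upk3a, a uroplakin of the apical plaque (chromosome 15, 84901342 to 84906761), had 841, 557 and 362 CPM after cyclophosphamide and 1606, 1587 and 1623 CPM after saline (log2 -1.49, SE 0.26, adjusted p = 0.000491). Upk2 (log2 -1.42), Upk1a (log2 -1.25), the terminal keratin gene Krt20 (log2 -0.89) and the sorting nexin gene Snx31 (log2 -1.45) fell with it. The 4 members that rose were the simple keratins Krt19 (log2 1.64), Krt8 (log2 1.01) and Krt7 (log2 0.80) and the ETS factor gene Elf3 (log2 0.89). The last 3 rested on cyclophosphamide replicate 2, without which the count of risen members was 1 and their adjusted p-values were 0.0681, 0.0743 and 0.0733. Krt7 was also lost without saline replicate 3 (0.0554).

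Basal keratins rose to high levels. Krt5 (chromosome 15, 101615504 to 101621340, minus strand) had 2097, 3164 and 2274 CPM after cyclophosphamide and 567, 637 and 581 CPM after saline (log2 2.05, SE 0.20, adjusted p = 1.52e-06). Krt14, which marks basal cells with the widest regenerative capacity, had 77.4, 135 and 116 CPM after cyclophosphamide and 1.69, 4.63 and 3.04 CPM after saline (log2 5.13, adjusted p = 0.000186). Integrin alpha 3 (Itga3, log2 1.98) and the hemidesmosome collagen gene Col17a1 (log2 2.98), which tie basal cells to their membrane, rose as well. The basal factor gene Trp63 was not called, with 251, 280 and 176 CPM after cyclophosphamide and 201, 213 and 233 CPM after saline (adjusted p = 0.715). The groups overlapped for Trp63, in contrast to the keratins.

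Squamous genes shared this direction, with 12 of 20 called higher and none lower (median log2 2.31), although 7 further genes of the list, among them Krt16 and Flg, had too few counts to be tested. The count higher was 8 without saline replicate 2 or 3, and 9 without saline replicate 1 or cyclophosphamide replicate 2 or 3. With DESeq2, or without the filter on low counts, it was 10. Krt13, the keratin of internal stratified epithelia, had 13.0, 39.2 and 45.4 CPM after cyclophosphamide and 0.203, 1.09 and 0.459 CPM after saline (log2 5.81, SE 0.58, adjusted p = 2.38e-06). The crosslinking enzyme gene Tgm1 (log2 3.13) and Sbsn (log2 1.58) rose. The keratins of the epidermal surface, Krt1 and Krt10, were at 0.199 to 5.32 CPM after cyclophosphamide and 1.83 to 6.48 CPM after saline and were not called. Sprr1a was very abundant, with 3331, 7002 and 4089 CPM, against 2360, 2307 and 2243 CPM (log2 1.04), and was lost without cyclophosphamide replicate 2 (adjusted p = 0.139), saline replicate 2 (0.0591) or saline replicate 3 (0.0679). Outside the lists, Dmkn (log2 4.33), a secreted protein gene of stratified epithelia, and the fatty acid ligase gene Acsbg1 (log2 4.83) rose, and so did Clu, a secreted chaperone gene, with 806, 1327 and 1111 CPM after cyclophosphamide and 224, 207 and 237 CPM after saline (log2 2.26).

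Among 16 tight junction and adhesion genes, Cldn8, a claudin that limits paracellular ion flow, changed most clearly and fell, with 56.4, 47.4 and 23.7 CPM after cyclophosphamide and 146, 190 and 229 CPM after saline (log2 -2.17, SE 0.24, adjusted p = 6.59e-06). Marveld3 fell by 0.76 on the log2 scale. The 4 members called higher, Cldn4, Cldn7, F11r and Cdh1, changed by log2 0.43 to 0.72. None of the 4 stayed called without cyclophosphamide replicate 2 or without saline replicate 1, and 1 did without saline replicate 2 or without saline replicate 3.

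**Figure D3:**
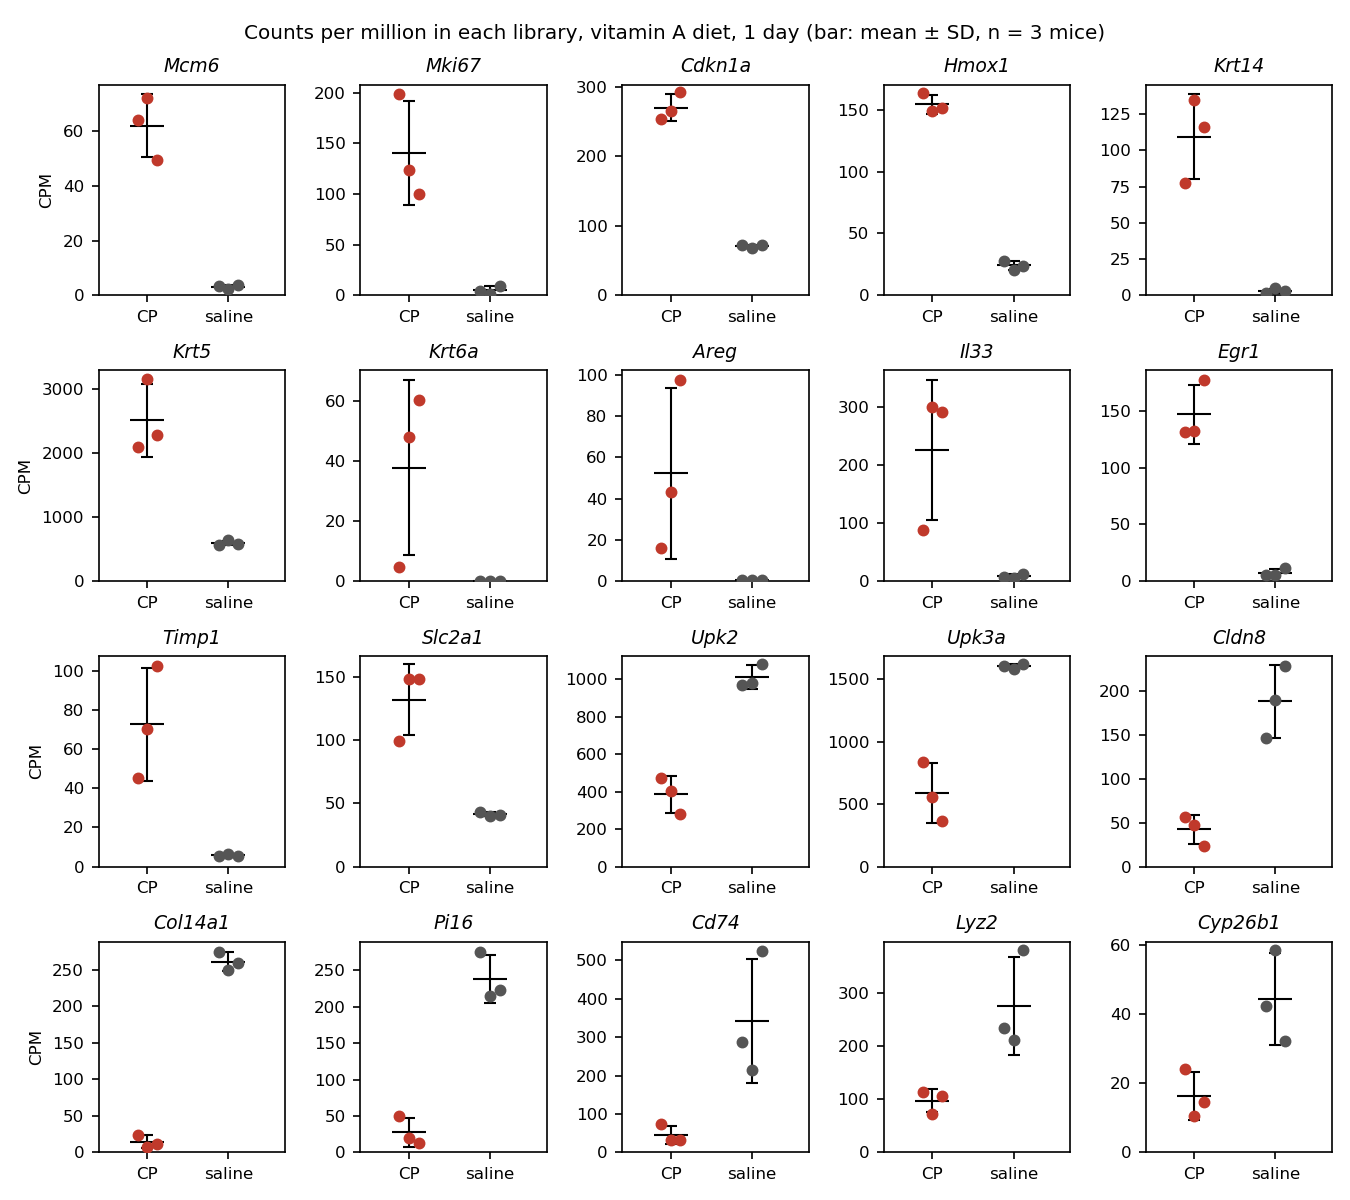
CPM of 20 genes in each library (dots), cyclophosphamide on the left and saline on the right of each panel, with mean and SD (bars, n = 3 mice) on axes that start at 0. Mki67, Krt5 and Cdkn1a are higher in every cyclophosphamide library than in any saline library, and Upk3a, Col14a1 and Cldn8 lower.

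Early response genes rose on the vitamin A diet. Of 22 AP-1 and immediate early genes, 14 were called higher and none lower (median log2 1.21). Fosl1, an AP-1 subunit of migrating epithelium, had 12.7, 14.5 and 25.3 CPM after cyclophosphamide and 0.639, 0 and 0.417 CPM after saline (log2 5.53, SE 0.60, adjusted p = 4.45e-06). Egr1, a zinc finger factor induced within minutes of many stimuli, had 132, 133 and 178 CPM after cyclophosphamide and 5.11, 5.21 and 11.2 CPM after saline (log2 4.35, adjusted p = 0.00254). Ier3 (log2 2.26), the ERK phosphatase gene Dusp5 (log2 1.81) and the mRNA decay factor gene Zfp36 (log2 1.18) rose. Atf3 was not called (log2 1.42, adjusted p = 0.119). Its lowest cyclophosphamide library had 7.67 CPM, and saline replicate 1 had 6.74 CPM. Such genes are also known to respond to the handling of tissue, whose part here was not tested.

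EGF receptor ligands rose with them. Besides Areg, Hbegf had 21.7, 41.2 and 53.4 CPM after cyclophosphamide and 6.54, 4.86 and 8.00 CPM after saline (log2 2.56, SE 0.36, adjusted p = 6.1e-05), and Ereg changed by log2 2.62. In all, 5 of 12 members were called higher and 1, Egf itself, lower (log2 -2.32). Without cyclophosphamide replicate 3, or without saline replicate 3, only 3 stayed higher, and Btc (log2 1.18) was lost in both cases (adjusted p = 0.0775 and 0.0867). Egf lost its call without cyclophosphamide replicate 3 (0.0755), saline replicate 2 (0.0701) or saline replicate 3 (0.0952), and 3 members were lower under quality weights. Epha2, an ephrin receptor gene, had 128, 115 and 169 CPM after cyclophosphamide and 15.9, 17.6 and 13.8 CPM after saline (log2 3.09), and Dusp6, a feedback phosphatase of ERK, changed by log2 1.87.

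Of 25 Hedgehog, Wnt and BMP genes, 11 were called lower and 2 higher (median log2 -0.99). Shh, the ligand made by basal cells, was not called, with 187, 210 and 124 CPM after cyclophosphamide and 189, 214 and 200 CPM after saline (adjusted p = 0.355). Its target Gli1 had 22.0, 11.3 and 16.7 CPM, against 30.6, 37.9 and 33.0 CPM (log2 -1.06, SE 0.22, adjusted p = 0.00222). Bmp2 (log2 -1.58), Bmp4 (log2 -1.21), the BMP target Id2 (log2 -1.41) and the Wnt antagonist Sfrp1 (log2 -1.40) fell. The members that rose were Wnt4 (log2 0.90) and Grem1, a BMP antagonist, with 9.70, 4.89 and 17.2 CPM after cyclophosphamide and 0.813, 0.389 and 1.58 CPM after saline (log2 3.49). In the FGF family, besides Fgf23, Fgf1 fell (log2 -1.21) and Fgf7 and Fgf10, stromal ligands for epithelium, were not called (log2 -0.02 and 0.13).

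Of 28 cytokines and chemokines tested, 15 were called higher and 3 lower (median log2 2.12), with 9 higher when cyclophosphamide replicate 3 was left out. The summed level of the list was 386, 643 and 666 CPM after cyclophosphamide and 444, 513 and 416 CPM after saline, so the groups overlapped. Il33, an alarmin stored in nuclei of barrier cells (chromosome 19, 29902513 to 29938118), was among those that rose. It had 87.2, 300 and 291 CPM after cyclophosphamide and 6.97, 5.53 and 12.3 CPM after saline (log2 4.77, SE 0.47, adjusted p = 2.91e-06). Il1rn, the decoy ligand of the interleukin-1 receptor, had 37.8, 100 and 69.5 CPM, against 6.24, 4.20 and 7.75 CPM (log2 3.50). Cxcl1, a neutrophil attractant, had 4.95, 6.22 and 8.21 CPM, against 0.378, 0.0778 and 0.208 CPM (log2 4.76). Il6 had 0.873, 2.42 and 2.54 CPM after cyclophosphamide and 1 count in the saline group, a ratio of 162 with a counting interval of 28.5 to 6460. Il1b was highest in cyclophosphamide replicate 3, at 8.56 CPM against 1.26 and 2.21 CPM in its group mates, and its call (log2 2.89, adjusted p = 0.015) was lost without that library (0.158) or without saline replicate 1 (0.0668) or 2 (0.0628). The 3 that fell were the homeostatic chemokines Cxcl12 (log2 -1.86) and Cxcl14 (log2 -1.58) and the interferon gamma target Cxcl9, which had 0 counts after cyclophosphamide and was at least 26.2-fold lower, a call lost under quality weights (adjusted p = 0.0703).

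The NF-kB motif GGGANTTTC was present in 6 of 20 cytokine and chemokine promoters (30%), against 1.04% of all. The promoter printed is that of the called gene with the largest log2 change among those with a match. It is that of Cxcl3, which had 0.0970, 0.875 and 1.54 CPM after cyclophosphamide and 0 counts after saline, at least 23.3-fold higher. The call of Cxcl3 (adjusted p = 0.0269) was lost without cyclophosphamide replicate 2 (0.0552) or 3 (0.0787) and without saline replicate 1 (0.0837), 2 (0.0852) or 3 (0.0793). The window is chr5:90785851-90786150 on the plus strand (GRCm38.p6), with the match in capitals. Nfkb2, a subunit gene of NF-kB, rose by 1.02 on the log2 scale.
Cxcl3: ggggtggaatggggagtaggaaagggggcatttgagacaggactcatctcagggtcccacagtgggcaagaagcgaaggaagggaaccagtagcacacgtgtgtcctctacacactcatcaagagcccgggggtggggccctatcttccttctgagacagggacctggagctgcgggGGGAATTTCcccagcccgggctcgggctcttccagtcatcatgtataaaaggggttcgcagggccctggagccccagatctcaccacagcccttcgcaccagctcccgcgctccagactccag

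Neutrophil markers were scarce, and their sum was higher. It was 10.7, 20.2 and 39.6 CPM in cyclophosphamide bladders and 5.52, 6.07 and 7.29 CPM in saline bladders. Of 14 markers listed 8 had enough counts to be tested, and 3 were called higher and 0 lower. The lowest log2 change was -2.52. With DESeq2 5 were higher and 1 lower, and 1 was also lower without the filter on low counts, with quality weights or without cyclophosphamide replicate 1. S100a9 had 1.65, 4.99 and 12.9 CPM after cyclophosphamide and 3 counts in the saline group (ratio 182, counting interval 61.8 to 885), and the chemokine receptor gene Cxcr2 changed by log2 4.14. S100a8 (log2 4.19, adjusted p = 0.0419) was lost without cyclophosphamide replicate 2 (0.0616) or 3 (0.165) and without saline replicate 1 (0.126), 2 (0.118) or 3 (0.066). The granule gene Camp had 0 counts in both groups. Among defence genes, the lectin gene Reg3g had 38.8, 53.3 and 35.6 CPM after cyclophosphamide and 1.95, 2.02 and 7.75 CPM after saline (log2 3.46, SE 0.45, adjusted p = 2.83e-05), whereas Reg3b had 0 counts in all 6 libraries. Wfdc2 rose (log2 1.73), and the epithelial defensin gene Defb1 fell (log2 -1.43), as did Pigr and Nos2. Of 14 defence genes tested 4 were higher (28.6%) and 3 lower (21.4%), against 10.2% and 9.05% of all genes tested. The count higher was 2 without saline replicate 1 or 2. The count lower was 1 without saline replicate 3 or with quality weights.

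Genes of antigen presentation and lymphocytes were lower. Of 9 MHC class II genes, 6 were called lower and none higher (median log2 -2.60). H2-Aa (chromosome 17, 34501718 to 34506797, minus strand) had 15.8, 11.2 and 13.0 CPM after cyclophosphamide and 87.2, 66.0 and 140 CPM after saline (log2 -2.90, SE 0.26, adjusted p = 1.15e-06). Cd74, the invariant chain, had 73.0, 31.8 and 33.0 CPM, against 287, 215 and 523 CPM (log2 -2.93), and the master regulator gene Ciita was not called (log2 -1.15, adjusted p = 0.119). Saline replicate 3 was highest for these genes and also for lymphocyte markers, whose summed level was 7.18, 4.01 and 5.47 CPM after cyclophosphamide and 15.2, 13.9 and 46.4 CPM after saline. H2-Aa stayed called without any 1 library (largest adjusted p = 1.24e-05).

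Lymphocyte markers fell in 6 of 17 cases and rose in none. Ncr1, the natural killer receptor NKp46, had 0 counts in all 3 cyclophosphamide bladders and 1.63, 2.14 and 3.33 CPM in saline bladders, so it was at least 45.5-fold lower (adjusted p = 9.87e-05). Nkg7, a cytotoxic granule gene, was at least 31.5-fold lower on the same grounds. Cd3e was not called (log2 -2.01, adjusted p = 0.206). With saline replicate 3 left out, 3 lymphocyte genes remained called, and 3 without cyclophosphamide replicate 2. Quality weights left 2 and a fit of only the 6 libraries left 3. Among 20 macrophage genes, 4 rose (20%) and 3 fell (15%), against 10.2% and 9.05% of all genes tested (median log2 0.44). The inflammatory Fc receptor gene Fcgr1 (log2 1.92), the scavenger Cd68 (log2 1.35) and the arginase gene Arg1 (log2 4.08) rose, and Lyz2 (log2 -1.52), Csf1r (log2 -1.14) and Cx3cr1 (log2 -1.94) fell. The call of Cx3cr1 was lost under quality weights (adjusted p = 0.116), which called 7 macrophage genes higher. Adgre1, the F4/80 antigen, was not called (adjusted p = 0.205). Irf8, a factor of dendritic cells and monocytes, fell by 1.04 on the log2 scale. Of 23 interferon response genes 5 rose (21.7%), among them Isg15 (log2 1.77) and Zbp1 (log2 1.82), and 2 fell (8.7%, against 9.05% of all genes tested). Without saline replicate 2 the count higher was 2. Without cyclophosphamide replicate 3 it was 3 higher and 0 lower, and 1 was lower without cyclophosphamide replicate 2, saline replicate 1 or saline replicate 3. With quality weights 9 were higher and 0 lower, and with only the 6 libraries 5 were higher and 0 lower.

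**Figure D4:**
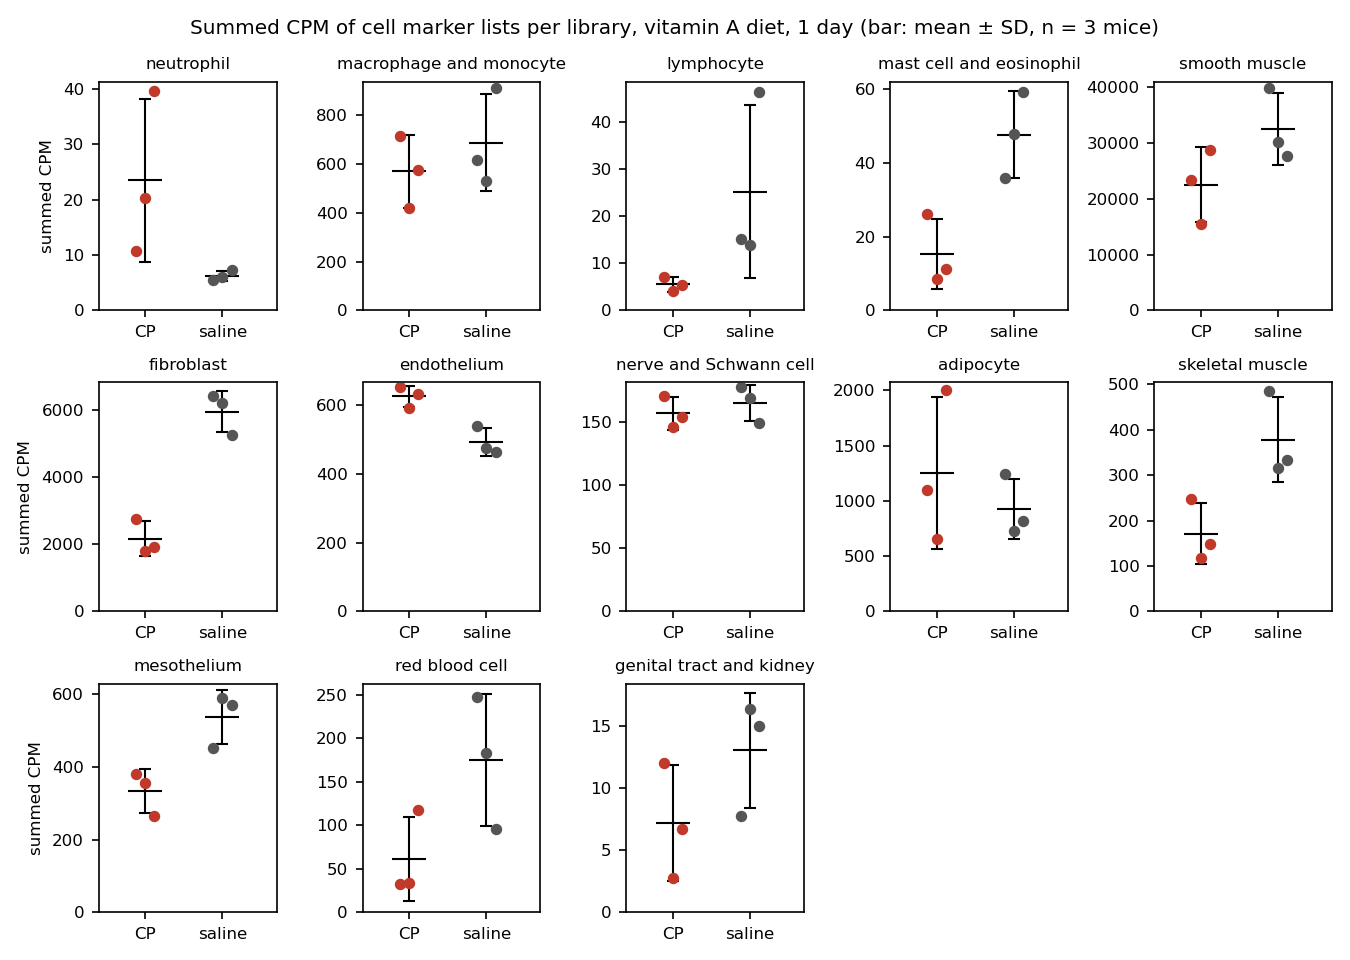
Summed CPM of 13 cell marker lists per library (dots), cyclophosphamide left and saline right in each panel, with mean and SD (bars, n = 3 mice) on axes that start at 0. Fibroblast markers are at 1804 to 2760 CPM after cyclophosphamide and 5239 to 6399 CPM after saline, while nerve and adipocyte sums overlap between groups.

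Fibroblast and elastic fibre genes fell together. Of 14 fibroblast markers 8 were called lower and 1 higher (median log2 -1.33), and of 22 collagen and elastic fibre genes 12 were lower and none higher (median log2 -0.97). Col14a1, a collagen of fibril surfaces (chromosome 15, 55171040 to 55384199), had 24.3, 7.05 and 11.9 CPM after cyclophosphamide and 275, 250 and 259 CPM after saline (log2 -4.22, SE 0.42, adjusted p = 2.43e-06). It averaged 161 ± 92.5 CPM at 3 days. Pi16, a marker of adventitial fibroblasts, had 49.9, 19.6 and 13.1 CPM, against 276, 215 and 224 CPM (log2 -3.16). Fbln5, needed for elastic fibre assembly, had 12.1, 6.79 and 10.1 CPM, against 103, 104 and 99.2 CPM (log2 -3.43), and Eln, elastin itself, changed by log2 -1.45. Dcn (log2 -2.14), Lum (log2 -2.27) and Col1a1 (log2 -1.51) fell, and so did Gpc6 (log2 -3.23) and Htra3 (log2 -2.14), which are in no list. The basement membrane collagens Col4a1 and Col4a2 were not called (log2 0.39 and 0.54). The member that rose, Ly6a (log2 0.75), was lost without cyclophosphamide replicate 1 (adjusted p = 0.0673), saline replicate 2 (0.0647) or saline replicate 3 (0.0931).

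Proteases and wound genes rose in 16 of 26 cases and fell in 4 (median log2 1.15). Timp1, an inhibitor of metalloproteases, had 45.2, 70.3 and 102.6 CPM after cyclophosphamide and 5.34, 6.30 and 5.50 CPM after saline (log2 3.64, SE 0.33, adjusted p = 1.01e-06). The plasminogen activator gene Plat (log2 2.84) and the urokinase receptor gene Plaur (log2 2.45) rose too. Mmp2, the fibroblast gelatinase, fell, with 151, 91.0 and 84.9 CPM, against 273, 259 and 234 CPM (log2 -1.27), and so did Timp2 (log2 -0.88). Without cyclophosphamide replicate 2, or without saline replicate 2, 2 genes stayed lower. Mmp10, a stromelysin of migrating epithelium, had 1.41, 7.61 and 15.2 CPM after cyclophosphamide and 1 count in the saline group, a ratio of 674 with a counting interval of 120 to 26700. It is the member with the largest log2 change whose promoter holds the AP-1 motif TGANTCA. The motif was found in 4 of 16 promoters of the list (25%), against 5.71% of all. The window is chr9:7502092-7502391 on the plus strand (GRCm38.p6).
Mmp10: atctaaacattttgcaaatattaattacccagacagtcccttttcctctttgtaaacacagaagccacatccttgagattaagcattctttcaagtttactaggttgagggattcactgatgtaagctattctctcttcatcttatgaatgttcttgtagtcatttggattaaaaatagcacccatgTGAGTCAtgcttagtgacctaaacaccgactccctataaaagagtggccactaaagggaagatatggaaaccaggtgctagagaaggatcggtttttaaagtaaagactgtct

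Smooth muscle transcripts overlapped between groups for Acta2 (log2 -0.65, adjusted p = 0.174) and Actg2 (log2 -0.71, adjusted p = 0.166). Synpo2 fell (log2 -1.25), and Myh11 (log2 -1.09) was lost without cyclophosphamide replicate 2 (adjusted p = 0.102) or saline replicate 1 (0.0768). The purinergic channel gene of bladder muscle, P2rx1, had 319, 92.3 and 177 CPM after cyclophosphamide and 649, 491 and 515 CPM after saline (log2 -1.54), while the muscarinic receptor genes Chrm2 and Chrm3 were not called (adjusted p = 0.0874 and 0.147). In endothelium the adhesion gene Icam1 had 87.4, 87.9 and 78.8 CPM after cyclophosphamide and 21.4, 23.7 and 30.6 CPM after saline (log2 1.72, SE 0.16, adjusted p = 1.23e-06). Icam1 is also made by other cells. Selp (log2 1.64), Plvap (log2 0.99) and Eng (log2 0.95) rose, Sele (log2 -1.06), Vcam1 and Cldn5 fell, and Pecam1 was not called (log2 0.12). Of 17 endothelial markers 5 were higher (29.4%) and 3 lower (17.6%), against 10.2% and 9.05% of all genes tested (median log2 0.20). The count lower was 1 without cyclophosphamide replicate 2. Skeletal muscle Myh2, with at most 0.631 CPM after cyclophosphamide, had 43.5 and 42.2 CPM in saline replicates 1 and 2 but 8.17 CPM in saline replicate 3. Its call (log2 -6.45) was lost under quality weights (adjusted p = 0.208). Of 6 red cell markers 4 were called lower, 3 of them haemoglobin genes, but none stayed called without cyclophosphamide replicate 2, 1 without saline replicate 1, and 2 without cyclophosphamide replicate 1 or saline replicate 2. Without the filter on low counts, or with only the 6 libraries, 2 were lower.

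Genes of pain and prostaglandin signalling rose in 9 of 16 cases and fell in 1. Bdkrb1, the inducible bradykinin receptor, had 4.80, 5.76 and 8.06 CPM after cyclophosphamide and 0.0581, 0.0389 and 0.292 CPM after saline (log2 5.59, SE 0.69, adjusted p = 1.78e-05). Ptgs2, the inducible cyclooxygenase, had 14.02, 14.5 and 44.1 CPM, against 5.11, 4.28 and 3.08 CPM (log2 2.50). The synthase gene Ptges (log2 0.97) and the receptor gene Ptger4 (log2 1.31) rose, and Hpgd, which degrades prostaglandins, fell (log2 -0.86). In the cell death list 9 of 18 genes rose. Ripk3 and Mlkl, kinase and executor of necroptosis, both changed by log2 2.31, and the gasdermins Gsdmc3 and Gsdmc4 by log2 1.67 and 4.01. Gsdmd was not called (log2 -0.04). Gsdmc genes are near-identical copies, so their separate values are uncertain.

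Of 24 glycolysis and hypoxia genes 15 were called higher and none lower (median log2 0.67). Of 19 nuclear oxidative phosphorylation genes 1 was higher and 1 lower (5.26% each, against 10.2% and 9.05% of all genes tested). Their median log2 change was 0.08, and 3 were higher under quality weights. Slc2a1, the glucose transporter GLUT1 (chromosome 4, 118965942 to 118994527), had 99.2, 148 and 148 CPM after cyclophosphamide and 42.9, 39.9 and 40.7 CPM after saline (log2 1.65, SE 0.15, adjusted p = 1.18e-06). Pgk1 (log2 1.30), Eno1 (log2 0.92) and Ldha (log2 1.48) rose, and Hk2 was not called (adjusted p = 0.144). In the unfolded protein and integrated stress list 11 of 21 rose and 1 fell. The endoplasmic reticulum chaperones Hspa5 (log2 0.86) and Calr (log2 1.10) rose, while Ddit3, the CHOP factor, was not called (log2 0.10, adjusted p = 0.813), and Herpud1 fell (log2 -0.63).

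Oxidative stress genes went both ways. Of 26 Nrf2 targets 8 rose and 5 fell (median log2 0.25), and the count lower was 3 without cyclophosphamide replicate 3, saline replicate 1 or saline replicate 2. Hmox1, haem oxygenase (chromosome 8, 75820246 to 75827221), had 164, 149 and 152 CPM after cyclophosphamide and 28.1, 20.6 and 23.9 CPM after saline (log2 2.64, SE 0.27, adjusted p = 2.43e-06). Txnrd1 (log2 1.30), the cystine carrier gene Slc7a11 (log2 2.42) and the glutathione peroxidase gene Gpx2 (log2 2.40) rose. The conjugation enzyme gene Gstm1 fell to 3707, 3036 and 1524 CPM, against 6118, 6525 and 5815 CPM in saline bladders (log2 -1.19), and Mgst1 fell too (log2 -1.02). The quinone reductase gene Nqo1 (log2 -0.70, adjusted p = 0.0259) was lost without cyclophosphamide replicate 3 (0.124), saline replicate 1 (0.0986) or saline replicate 2 (0.0638). The antioxidant response element, searched as TGACNNNGC, was in 7 of 20 promoters of the list (35%), against 14.4% of all. Of the 8 members called higher, 6 had a promoter window. Only 1 of these held TGACNNNGC, and no other spelling of the element was searched. That 1 was Srxn1, the sulfiredoxin gene (log2 0.50, adjusted p = 0.00163), shown as chr2:152105274-152105573 on the plus strand (GRCm38.p6).
Srxn1: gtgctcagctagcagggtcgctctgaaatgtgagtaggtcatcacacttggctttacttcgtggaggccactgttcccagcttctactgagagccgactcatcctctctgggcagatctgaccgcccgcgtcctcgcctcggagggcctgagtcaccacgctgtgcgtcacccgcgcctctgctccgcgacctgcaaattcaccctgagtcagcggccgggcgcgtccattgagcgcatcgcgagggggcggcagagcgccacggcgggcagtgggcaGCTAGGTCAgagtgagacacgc

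Of 18 genes that handle vitamin A itself, 7 fell (38.9%) and 3 rose (16.7%), against 9.05% and 10.2% of all genes tested. The median log2 change was -0.17, with 9 of the 18 above 0, and the count lower was 4 without saline replicate 2. Lrat, which stores retinol as esters, had 4.71, 2.62 and 1.44 CPM after cyclophosphamide and 15.3, 20.9 and 11.6 CPM after saline (log2 -2.48, SE 0.54, adjusted p = 0.00316). Ttr, a carrier of the retinol-binding protein, had 5.68, 3.04 and 0.448 CPM, against 34.9, 49.2 and 49.6 CPM (log2 -3.90). Cyp26b1, which degrades retinoic acid (chromosome 6, 84548396 to 84570890, minus strand), had 24.2, 10.7 and 14.6 CPM, against 42.6, 58.6 and 32.4 CPM (log2 -1.47, adjusted p = 0.00879), and its adjusted p was 0.0561 without saline replicate 2. Aldh1a3, a retinaldehyde dehydrogenase, rose, with 8.68, 13.1 and 20.8 CPM after cyclophosphamide and 2.32, 1.63 and 3.13 CPM after saline (log2 2.57, adjusted p = 0.000156), and the retinol dehydrogenase gene Rdh10 rose as well (log2 0.95). The alcohol dehydrogenase genes Adh1 (log2 -1.38) and Adh7 (log2 -1.26) fell. None of the retinoic acid receptor genes tested was called, Rarb at log2 0.18 and Rarg at log2 0.14.

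Transcription factors, taken from the annotation column of the deposited table, were called lower in 135 of 1128 cases (12%) and higher in 71 (6.29%), against 9.05% lower and 10.2% higher over all genes tested. Whether they differ from other genes was not tested. Besides E2f8, Fosl1, Foxm1 and Nfkb2, Snai3, a relative of Snail, was among the 6 with the smallest p (log2 3.62). The clock gene Arntl, also called Bmal1, had 3.54, 3.76 and 2.49 CPM after cyclophosphamide and 17.5, 16.8 and 15.7 CPM after saline (log2 -2.38, SE 0.27, adjusted p = 6.59e-06). The hour of collection is not given in the labels, and its part in this was not tested. Smad6, an inhibitor of BMP signalling (log2 -1.11), and the zinc finger gene Zfp2 (log2 -1.44) fell.

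Whether the response differed with diet was tested as an interaction with the cyclophosphamide and saline mice on the normal diet. On that diet 1403 genes were higher (7.26%) and 868 lower (4.49%). Of the genes called on the vitamin A diet 42.6% were also called in the same direction on the normal diet (1008 higher and 579 lower), and of those called on the normal diet 69.9% were, while 3 were called in opposite directions. No gene passed the threshold for the interaction in edgeR, where the smallest adjusted p was 0.093 and 1505 genes (7.79%) had an unadjusted p under 0.05. DESeq2 called 120 and limma with quality weights 183, and edgeR called 39 without cyclophosphamide vitamin A replicate 1, 9 without saline normal diet replicate 3, 3 without cyclophosphamide vitamin A replicate 2 and 2 without saline vitamin A replicate 2. Genes below are therefore given by their values, not as differences between diets.

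The genes with the smallest interaction p-values included Slc2a1, which averaged 132 ± 28.3 CPM after cyclophosphamide and 41.2 ± 1.56 CPM after saline on the vitamin A diet (SD, n = 3). On the normal diet Slc2a1 averaged 65.6 ± 5.69 CPM after cyclophosphamide and 49.9 ± 3.70 CPM after saline, so the log2 changes were 1.65 and 0.40. Epha2 changed by log2 3.09 on the vitamin A diet and 1.04 on the normal diet, and the matricellular gene Ccn1 by log2 2.97 and 0.00. H2-Aa averaged 13.3 ± 2.29 CPM after cyclophosphamide and 97.7 ± 38.1 CPM after saline on vitamin A, and 35.7 ± 6.37 CPM after cyclophosphamide and 68.8 ± 12.7 CPM after saline on the normal diet. H2-Eb1 and H2-Ea had the same order of group means. Ephb1 had 1 count in the cyclophosphamide vitamin A group and averaged 2.09 ± 0.405 CPM in its saline group, against 0.930 ± 0.539 CPM after cyclophosphamide and 1.17 ± 0.239 CPM after saline on the normal diet. Gsta3, a glutathione transferase gene, changed by log2 -0.60 on vitamin A, where it was not called (adjusted p = 0.074), and rose by log2 1.11 on the normal diet.

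By list, S phase genes were called higher in 30 of 30 cases on each diet, and mitosis genes in 29 of 30 on each. Of 22 AP-1 and immediate early genes 14 were higher and 0 lower on vitamin A, and 3 were higher and 1 lower on the normal diet (medians log2 1.21 and 0.15). Of the 22, 12 had an unadjusted interaction p under 0.05, as did 7.79% of all genes tested. Egr1 averaged 147 ± 26.2 CPM after cyclophosphamide and 7.17 ± 3.47 CPM after saline on vitamin A. On the normal diet it averaged 40.8 ± 7.87 CPM after cyclophosphamide and 35.7 ± 24.7 CPM after saline. Neither the saline groups nor the cyclophosphamide groups of the diets were tested against each other. The interaction of Egr1 did not pass the edgeR threshold. Of 26 Nrf2 targets 8 were higher and 5 lower on vitamin A, and 14 were higher and 0 lower on the normal diet. Over all genes tested 10.2% were higher and 9.05% lower on vitamin A, and 7.26% and 4.49% on the normal diet. The 5 were 3 without cyclophosphamide replicate 3, saline replicate 1 or saline replicate 2 of the vitamin A diet. Collagen and elastic fibre genes were lower in 12 and 13 of 22 cases. Reg3g changed by log2 3.46 on vitamin A and 6.52 on the normal diet, and its interaction did not pass the edgeR threshold either.

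**Figure D5:**
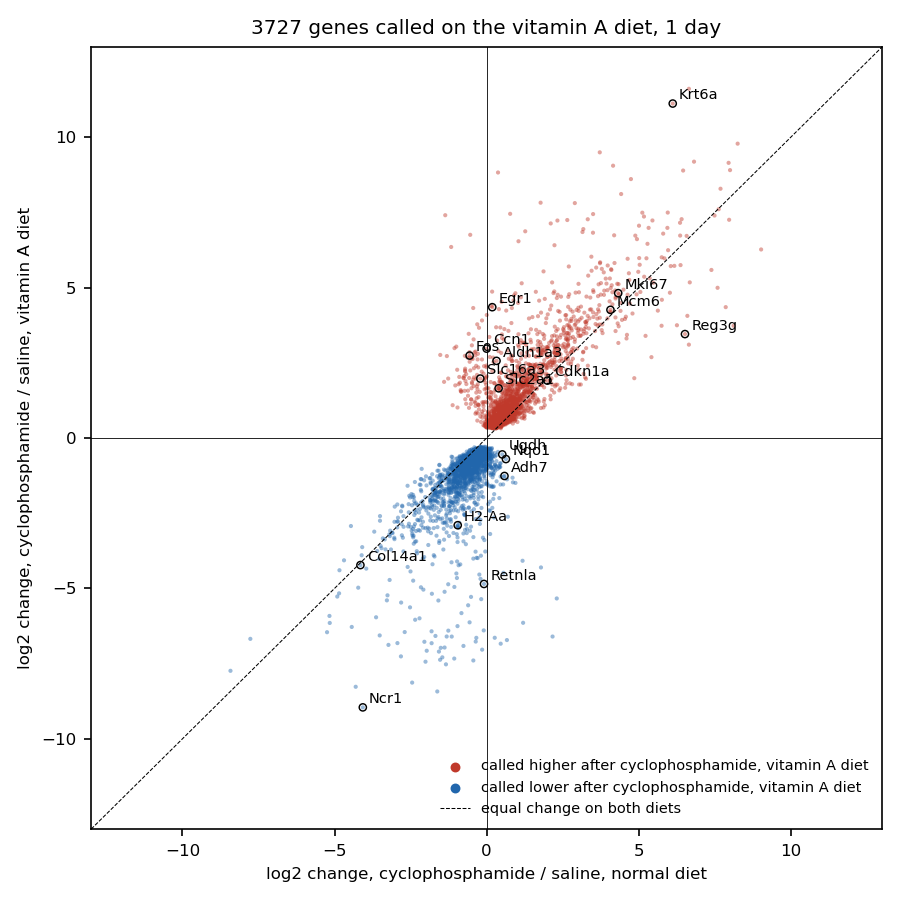
Log2 change after cyclophosphamide at 1 day on the vitamin A diet (vertical axis) against that on the normal diet (horizontal axis) for the 3727 genes called on the vitamin A diet, red for higher and blue for lower, with equal changes on the dashed line. Because these genes were chosen by the vertical axis, their spread away from the dashed line is partly set by that choice, and Mki67 and Col14a1 lie near the line while Egr1 and Ccn1 lie near 0 on the horizontal axis.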

How the data were processed

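RNA of whole bladders was sequenced by the authors and deposited as whole-number counts per gene. Per the submitters' processing notes, HISAT2 2.0.5, featureCounts 1.5.0-p3, DESeq2 1.20.0 and GRCm39 were used. Settings, strandedness and the treatment of multi-mapped reads: not given in the sources used here. Of 60750 deposited features, 14417 without a gene name (0.474% to 0.810% of a library's counts) were left out. The test was that of edgeR 4.0.16 in R 4.3.3 (TMM, filterByExpr, robust quasi-likelihood, 1 mean per group over all 18 libraries, 12 residual degrees of freedom), 2-sided, with Benjamini-Hochberg adjustment over 19323 genes and a threshold of 0.05. All adjusted p-values are from this test unless another tool or a left-out library is named. CPM values are scaled by library totals, fitted changes by TMM. Gene positions are those of the deposited table, and promoters are from RefSeq. Groups follow the titles, and 3 mice per group limit an exact permutation test of 1 gene to a p of at least 0.1. Groups at 0 counts were set at a floor of 3 counts over the group, and ratios of few counts carry exact 95% Clopper-Pearson intervals. Both cover counting error only.

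The 42 lists, with 721 tested genes, came from general knowledge, and members and lists were chosen with earlier results of these data known. Named genes were up to 12 each way with the largest change (mean log2 CPM of at least 1 and groups not overlapping), up to 10 each way in no list and up to 6 transcription factors each way by smallest p, list anchors with up to 4 called members each way, and up to 6 each way by interaction p. Other list members are named to show a count or a limit, and were chosen after their values were seen. Alternatives were DESeq2 1.42.0, limma 3.58.1 voom with quality weights, RLE scaling, no filter, unnamed features kept, a replicate block, only the libraries compared, and leaving out each library. The quality weight was largest for vitamin A saline replicate 2 (6.73), which counts most in the fits that use these weights. FPKM values and the authors' diet comparisons were not used. Some genes that the rule takes are not reported here.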

Additional observations from a re-analysis of the deposited data

Results flagged for a closer look

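Among the features without a gene name, which the comparisons above leave out, 1946 had enough counts to be tested when they were kept in the fit. Of these, 76 were higher (3.91%) and 59 lower (3.03%) in cyclophosphamide than in saline bladders on the vitamin A diet, shares below the 10.2% and 9.05% of named genes. They were singled out because they lie outside the named genes on which the text reports.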

How the results depend on the processing

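The count of genes higher after cyclophosphamide on the vitamin A diet stayed within 1.5 times of 1979 under every alternative (1357 to 1989 when 1 library was left out, 2441 with DESeq2, 2825 with limma and quality weights). The count lower, 1748, was 1117 without saline replicate 2 and ranged from 1117 to 1937 over the left-out libraries. The interaction, 0 in edgeR, had 120 genes with DESeq2, 183 with limma and quality weights, 25 without the filter on low counts, 19 with only the 12 libraries at 1 day, and 0 to 39 when 1 library was left out. On the normal diet limma with quality weights called 2991 higher and 2467 lower, DESeq2 1360 lower, the 12 libraries alone 1394 lower, and left-out libraries 813 to 1096 higher and 387 to 494 lower. These settings were applied to the normal diet after seeing the data. The cause of these shifts was not tested. Of 256 named called genes 194 kept their call under all alternatives, 62 lost it in at least 1, and 0 reversed.

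Replicate numbers are shared by the groups, and deviations of same-numbered mice from their group means had correlations of -0.071, 0.064 and -0.074. For number 2 alone the same-numbered saline mouse was the closest match. These values cannot show whether same-numbered mice shared a cage or a day of work, which the labels do not give. With the replicate block 1875 genes were higher and 1652 lower, and 0 passed the interaction. With 3 mice per group, differences of genes with few counts may not be detectable at this depth.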
